A study of Mus musculus with 18 samples.

Results

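The 344 array probes described here, of 42006 on the array, rose in the wild-type (WT) digit tip between embryonic days E14.5 and E16.5 and were low at E16.5 in digit tips without Fzd6, but not at E18.5. Values are log2 of the green Cy3 signal of the digit tip over the red Cy5 signal of a common reference RNA, so 1 unit is a 2-fold difference and digit-tip RNA that is more abundant gives a higher value. Members were chosen by group means of this ratio: a probe was taken if its WT mean rose by at least 1.5 from E14.5 to E16.5, did not then fall by 1 or more, and its Fzd6-/- (KO) mean lay at least 1 below WT at E16.5 and within 1 of WT at E18.5. It also had to be well above background in Cy3 on all 3 WT E16.5 arrays. The WT rise alone was met by 1357 probes, 1077 of these did not fall by 1 or more by E18.5, and 959 of those were well above background at E16.5. Of the 959, 415 were at least 1 lower in KO at E16.5, and the E18.5 limit left out 51 that were still at least 1 lower and 20 that were at least 1 higher. These 4 differences between group means are therefore a description of the choice, and no test is given for them.

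The study hybridised RNA from forelimb digit tips of C57BL/6 embryos, WT or Fzd6-/-, at 3 stages (E14.5, then E16.5, then E18.5), with 3 arrays for each of the 6 groups and sexes mixed. Both genotypes came from crosses of Fzd6+/- mice, the design text describes RNA from each embryo, and the labels name no tissue to which the deletion is restricted. The reference on every array was a pool of mouse cell line RNA to which 129ES embryonic stem cell RNA was added, always in Cy5, so dyes were not swapped. The arrays lay on 5 slides, and replicates 1 and 2 of every group were scanned in a first batch and replicate 3 in a second. At the later 2 stages no slide carried WT and KO together. At E14.5 only replicate 3 of each genotype shared a slide, and replicates 1 and 2 of WT and KO lay on different slides.

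Fzd6 encodes a Frizzled receptor, a membrane protein that binds Wnt ligands and is best known for planar cell polarity, the alignment of cells within a sheet. It orients hair follicles in the skin, and loss of FZD6 function is known to cause nail malformation. During late gestation the epidermis of the digit tip stratifies and the nail field forms, with keratinocytes turning on structural genes in sequence. The sampled tips also hold dermis, cartilage and other tissue, in which a probe may rise as well. The files give probes by ID and sequence and pair no ID with a gene, so members are named by ID, the Fzd6 probe could not be used to check the genotype labels, and the labelled tissue could not be checked against its markers. In bulk tissue, fewer cells of a type and less RNA per cell cannot be told apart.

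Each probe is a DNA oligonucleotide of 60 bases, written 5′ to 3′ as the files give it. The first set shows the members that carry the main patterns: 3 of the 8 members with the lowest KO minus WT at E16.5 among those well above background on all 6 arrays of that stage (Z00040994-1, Z00026946-1, Z00024515-1), the largest measured WT rises (Z00022762-1, Z00070168-1) and the largest genotype difference at E14.5 in each direction among members called and well above background on all 6 arrays of E14.5 (Z00036206-1, Z00055038-1).
Z00040994-1: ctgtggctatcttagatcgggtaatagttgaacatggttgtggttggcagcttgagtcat
Z00026946-1: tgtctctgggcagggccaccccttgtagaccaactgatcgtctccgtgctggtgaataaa
Z00024515-1: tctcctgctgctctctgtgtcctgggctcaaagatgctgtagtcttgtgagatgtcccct
Z00022762-1: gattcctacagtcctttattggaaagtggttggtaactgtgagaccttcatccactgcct
Z00070168-1: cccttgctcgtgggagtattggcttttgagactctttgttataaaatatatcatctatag
Z00036206-1: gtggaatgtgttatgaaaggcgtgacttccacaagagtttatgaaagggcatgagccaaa
Z00055038-1: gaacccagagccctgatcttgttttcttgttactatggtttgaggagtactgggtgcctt

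The second set shows members that share sequence with each other or with a probe outside the set, and bears on how well separate spots repeat a value. Capitals mark the longest run of bases shared by the probes of a pair.
Z00041156-1: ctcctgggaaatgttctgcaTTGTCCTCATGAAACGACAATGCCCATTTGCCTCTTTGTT
Z00059773-1: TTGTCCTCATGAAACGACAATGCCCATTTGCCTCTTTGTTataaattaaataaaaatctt
Z00025579-1: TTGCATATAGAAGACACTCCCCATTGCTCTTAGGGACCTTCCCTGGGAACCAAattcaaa
Z00074497-1: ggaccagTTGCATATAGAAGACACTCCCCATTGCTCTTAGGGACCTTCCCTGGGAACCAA
Z00070958-1: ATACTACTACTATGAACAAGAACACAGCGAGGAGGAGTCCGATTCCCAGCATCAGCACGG
Z00071819-1: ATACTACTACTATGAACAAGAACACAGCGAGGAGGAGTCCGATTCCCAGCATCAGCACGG
Z00057869-1: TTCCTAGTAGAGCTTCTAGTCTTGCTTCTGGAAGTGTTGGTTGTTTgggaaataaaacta
Z00023905-1: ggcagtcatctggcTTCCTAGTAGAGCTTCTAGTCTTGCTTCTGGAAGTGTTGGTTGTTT
Z00050804-1: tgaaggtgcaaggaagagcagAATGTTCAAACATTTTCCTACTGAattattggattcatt
Z00025085-1: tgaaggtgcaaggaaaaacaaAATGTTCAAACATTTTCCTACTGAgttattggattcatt

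Over all 344 members, the digit tips without Fzd6 stood between the E14.5 and E16.5 levels of the wild type at E16.5. The median log2 ratio on the WT arrays was -0.61, -0.62 and -0.80 for replicates 1, 2 and 3 at E14.5 and 2.48, 2.50 and 2.17 at E16.5. On the KO arrays it was -0.95, -0.95 and -0.87 at E14.5 and 0.18, 0.22 and 0.65 at E16.5. At E18.5 the WT medians were 2.81, 2.56 and 2.89 and the KO medians 2.57, 2.73 and 2.88. The 3 KO medians at E16.5 lay above every E14.5 median of either genotype and below every WT median of E16.5, and at E18.5 the genotypes overlapped. Replicate 3 of KO E16.5 was the highest of its group, and replicate 3 of WT E16.5 the lowest of its own.

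The size of the E16.5 shortfall differed widely among members. KO minus WT had a median of -1.47 with quartiles of -2.09 and -1.18, and the lowest was -6.37. It reached -2 or lower in 96 members, -3 or lower in 30 and -4 or lower in 10. All 3 KO arrays lay below all 3 WT arrays in 330 of the 344, where 15.4% of all 27989 tested probes did so, a count the choice of members largely fixes.

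Replicate numbers, which follow the scan batches, gave different sizes. KO minus WT within replicate 1 had a median of -1.70 over members, within replicate 2 it was -1.71, and within replicate 3, the second scan batch, it was -1.14. The means of these arrays chose the members, which favours a low KO value in each replicate. The KO value was the lower one in 343, 344 and 340 members, and lower by at least 1 in 325, 314 and 215. Of all 27989 tested probes, 13162, 12918 and 12937 were lower in KO, and 1600, 1464 and 1148 by at least 1. The shortfall was thus smaller on the slides of the second batch. As no slide carried both genotypes at that stage, slide and genotype cannot be told apart there. The difference lay in the sample channel: the median KO minus WT over members was -1.69 in Cy3 and -0.05 in Cy5, against 0.11 and 0.07 over all tested probes.

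How much of the wild-type rise the mutant had made by E16.5 separated the members further. The WT mean rose by a median of 3.00, with a range of 1.52 to 10.59, and the KO mean by 1.62. The KO rise as a share of the WT rise, both in log2 units, had a median of 52.8% and quartiles of 29.8% and 74.9%. The WT E14.5, WT E16.5 and KO E16.5 values in this share also chose the members, which favours a low share. For the 156 members well above background on all 12 arrays of the first 2 stages, where neither end of the rise rests on a dim spot, the median share was 59.0%. Of these 156, 18 had made less than 25% of the rise, 42 made 25 to 50%, 42 made 50 to 75% and 35 made 75 to 100%. The remaining 19 had risen by as much as WT or more and lay at least as far below WT at E14.5 as at E16.5. At the other end, KO E16.5 was at or below KO E14.5 in 17 of the 344 and in 4 of the 156.

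The other 504 rising probes met the same WT conditions and were less than 2-fold lower in KO at E16.5 and within 2-fold at E18.5. Their median WT rise was 2.06 and their median KO share of it 96.4%. The limit at E16.5 favours a low share in the members and a high one in these probes. Their median KO minus WT at E16.5 was still -0.57, while over all tested probes it was 0.04. The WT rise asked of the 504 uses the same WT E16.5 values, which favours a negative difference. The limit at 1 divides a range of differences. Just inside it lay Z00057703-1, Z00075561-1 and Z00074251-1, and just outside Z00025372-1, Z00023520-1 and Z00036747-1, all equal to the limit at 2 decimals.

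Z00040994-1 had the lowest KO value relative to WT at E16.5. Its WT arrays read 7.28, 7.58 and 7.26 at E16.5, and its KO arrays 0.34, -0.26 and 2.92, a difference of -6.37. The KO arrays were all far below the WT arrays, with replicate 3 the highest. At E14.5 none of its 6 spots was well above background, so its WT rise is given as at least 104-fold. By E18.5 the KO arrays read 8.12, 8.16 and 8.35 and the WT arrays 7.76, 7.23 and 8.48, and the genotypes overlapped.

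Z00026946-1 showed the same course with every one of its 18 spots well above background. At E14.5 its WT arrays read -1.66, -1.91 and -1.99 and its KO arrays -1.37, -1.92 and -1.73, which overlapped. At E16.5 WT read 4.09, 4.35 and 4.23 and KO -0.28, -0.52 and 1.02, so that KO had made 28.8% of the WT rise. At E18.5 WT read 4.75, 5.08 and 5.54 and KO 5.22, 5.17 and 5.09. The 3 KO arrays at E18.5 lay inside the WT range.

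Z00024515-1 stayed close to its E14.5 level in the KO arrays of the first scan batch. WT read 0.29, 0.34 and 0.17 at E14.5 and 4.48, 4.84 and 4.75 at E16.5. KO read 0.30, 0.45 and 0.52 at E14.5 and 0.42, 0.83 and 2.82 at E16.5, or 21.1% of the WT rise as a mean. Replicate 3 of KO E16.5 stood well above the other two, and all 3 stayed below every WT array. At E18.5 the means were 5.07 ± 0.30 (SD, n = 3) in WT and 5.20 ± 0.07 in KO.

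The other 5 of the 8 members with the lowest E16.5 values, among those well above background on all 6 E16.5 arrays, were Z00041156-1 at -5.28, Z00026220-1 at -3.75, Z00057869-1 at -3.67, Z00009243-1 at -2.87 and Z00017446-1 at -2.86. Their KO steps from E16.5 to E18.5 ran from 3.34 in Z00026220-1 to 6.12 in Z00041156-1, while the WT steps ran from -0.60 in Z00026220-1 to 1.89 in Z00017446-1. In all 5 at least 1 group of E14.5 had a spot not well above background. Their E14.5 values, and the rises built on them, have no firm size.

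The 8 members with the largest measured WT rises had KO shares from 28.8% to 106.0%. Z00022762-1 rose the most among members with all 6 of the WT spots concerned above background, by 6.84. Its WT arrays read 0.04, 0.16 and -0.31 at E14.5 and 6.51, 7.04 and 6.86 at E16.5, and its KO arrays read 5.04, 5.69 and 5.53 at E16.5. KO had made 86.3% of the rise in log2 units, and the 3 KO arrays lay below the 3 WT arrays. Without WT E16.5 replicate 1 or KO E16.5 replicate 1 its difference of -1.38 became -1.53 or -1.19.

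Z00070168-1, with the next largest rise at 6.47, kept a constant distance between genotypes. WT read -1.83, -2.11 and -2.40 at E14.5 and 4.37, 4.72 and 3.99 at E16.5. KO read -3.77, -3.71 and -3.55 at E14.5 and 2.49, 2.96 and 2.90 at E16.5. The genotypes did not overlap at either stage, and KO minus WT was -1.56 at E14.5 and -1.58 at E16.5. By E18.5 the difference was 0.07.

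The other 6 of the 8 largest WT rises were Z00026946-1, described above, and Z00070078-1, Z00048762-1, Z00051631-1, Z00028170-1 and Z00075132-1, with rises of 6.07 to 5.50. KO shares were 62.0%, 55.8%, 106.0%, 53.6% and 59.2% for the latter 5. In Z00048762-1 the WT arrays read 3.42, 3.55 and 3.41 at E16.5 against 0.97, 0.87 and 1.63 in KO. At E14.5 its genotypes overlapped, at -2.25, -2.04 and -2.15 in WT and -1.97, -2.24 and -1.70 in KO.

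After E16.5 the mutant rose where the wild type had mostly levelled off. The median step from E16.5 to E18.5 was 0.33 in WT and 1.90 in KO, and KO E18.5 was above KO E16.5 in 339 members. That held for 12367 of the 27989 tested probes and for 435 of the other 504 rising probes. KO minus WT at E18.5 had a median of -0.06 and quartiles of -0.35 and 0.28. The KO mean at E18.5 was at or above the WT mean of E16.5 in 224 members, or 65.1%, with a median difference of 0.29. Over all tested probes the share was 48.2%, and over the other 504 rising probes it was 55.4%, with a median difference of 0.07. The member values follow in part from the limits at E16.5 and E18.5 that chose the members.

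Members that went on rising in the wild type formed a smaller class. In 68 the WT mean rose by 1 or more after E16.5, and their median KO minus WT at E16.5 was -1.86 against -1.42 in the other 276. Among those measured on all 12 arrays of the earlier stages, the median KO share of the rise was 49.1% in 26 of the 68 and 60.9% in 130 of the 276. Z00036206-1 is of the first class: WT read 2.86, 3.65 and 2.46 at E16.5 and 4.92, 4.97 and 5.57 at E18.5, with KO at 0.29, -0.07 and 0.51 and then 5.0, 4.82 and 4.89. Its 3 KO arrays were below all WT arrays at E16.5 and overlapped them at E18.5.

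Separate spots with shared sequence gave an internal repeat of these values. Among the members, 9 pairs shared a run of at least 20 bases, which involved 18 of the 344. Such pairs probe the same or a closely related RNA and are not independent members. Within a pair KO minus WT at E16.5 differed by a median of 0.17 and at most by 0.81. Both probes of each pair had met the limits of the choice, which favours such closeness. Z00025579-1 and Z00074497-1, which share 53 bases, differed from WT by -1.53 and -1.55. Z00041156-1 and Z00059773-1, with 40 shared bases, had -5.28 and -6.09, the widest gap. In that pair the KO arrays read -3.27, -3.17 and 0.25 for one probe and -4.56, -3.33 and 0.32 for the other, so both showed a higher replicate 3, and Z00059773-1 was well above background on 1 of the 3.

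The 2 IDs with identical sequence, Z00070958-1 and Z00071819-1, read 3.23, 3.26 and 3.04 and 2.61, 3.22 and 2.80 on the WT E16.5 arrays. On the KO E16.5 arrays they read -0.11, -0.28 and 2.55, and 0.12, 0.99 and 2.09. Both were well above background on 1 of the 3 KO arrays. The means differed from WT by -2.45 and -1.81. This 1 pair shows how far identical probes near background came apart, and it gives no general precision. Both probes had met the limits of the choice, which favours a small gap.

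A further 17 probes outside the set shared such a run on the same strand with 14 members. Of these, 15 were lower in KO at E16.5, 4 of them by 1 or more, and 12 rose by at least 1.5 in WT. Of all 42006 probes 1357 rose that much, and of the 27989 tested 1105 were lower in KO by 1 or more. Among the 4, Z00023905-1 and Z00075199-1 both share a run with Z00057869-1 and are not independent. Z00073023-1, also of the 4, was well above background on no E16.5 array of either genotype. Z00057869-1 shares 46 bases with Z00023905-1, and KO minus WT at E16.5 was -3.67 and -3.92. At E18.5 they had -0.90 and -1.08, so the E18.5 limit kept one and left out the other. Z00075199-1, with 26 bases in common with Z00057869-1, had -5.48 at E16.5 and -1.99 at E18.5, and the limit left it out too. Its sample signal was clear of background on all 3 arrays of each genotype at both stages. Neither partner of Z00057869-1 thus repeated its place inside the E18.5 limit. Runs on the opposite strand were found in 2 more pairs. In one of them Z00022706-1 rose by 4.90 in WT and was -1.08 at E16.5, while Z00028989-1, which holds 48 of its bases on that strand, rose by 0.28 and had -0.22.

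Z00050804-1 and Z00025085-1, aligned end to end, differ at 4 positions, and went opposite ways. The member had KO minus WT of -1.15 at E16.5. Z00025085-1 was well above background on all 3 KO E16.5 arrays, at 0.03, -0.80 and -0.71, and on none of the 3 WT E16.5 arrays. Whether these probes also bind each other's RNA was not tested. Values of members that have a near-identical partner probe are uncertain as to gene.

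The genotype difference at E14.5 was not part of the choice, although the WT E14.5 arrays entered it through the WT rise. That rise favours members with low WT values at E14.5. Over the 343 members tested, KO was lower in 69 (20.1%) and higher in 10 (2.92%) at an adjusted p under 0.05 by limma, where 7.18% of all tested probes were lower and 5.55% higher. The median difference was -0.12 over members and 0.02 over all tested probes. Many members were dim at E14.5, and for 19 both channels held the scanner software's substitute signals on all 6 arrays, so the members well above background on all 6 arrays of E14.5 were also counted alone. Of these 155, 50 (32.3%) were lower and 3 (1.94%) higher, against 6.68% and 5.53% of all tested probes measured as well. Their median was -0.34, with quartiles of -0.75 and 0.03. Of the 103 members with no spot above background at E14.5, 5 passed the test in either direction, where 42 of the 514 such probes among all those tested (8.17%) did.

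All 3 KO arrays lay below all 3 WT arrays of E14.5 in 98 members and above them in 24, where 18.7% and 22.8% of all tested probes did so. With normexp background correction and loess in place of the scanner software's processed signals, 33 members were lower and 2 higher, where 5.22% and 3.72% of all tested probes were. With slide as a fixed term 22 were lower and 2 higher, where 2.84% and 1.73% of all tested probes were. Only replicate 3 of each genotype shared a slide at E14.5, so slide and genotype are largely mixed in this comparison. The count of higher members fell to 4 without WT E14.5 replicate 1, 5 without WT E14.5 replicate 2, 5 without KO E14.5 replicate 2, and 6 without WT E14.5 replicate 3. In these 4 fits, in that order, 3.32%, 3.1%, 3.35% and 3.6% of all tested probes were higher. The count was also 5 with no filter on dim probes, where 3.11% of all probes were higher.

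The other rising probes were counted at E14.5 in the same way. Of these 504, 203 (40.3%) were lower at E14.5 and 18 (3.57%) higher. Of the 334 measured on all 6 arrays, 155 (46.4%) were lower, with a median of -0.55. Whether the 2 sets differ was not tested.

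Z00036206-1 had the largest difference at E14.5 among members measured on all 6 arrays. WT read 1.52, 0.98 and 0.74 and KO -2.96, -2.83 and -1.68, a difference of -3.57 ± 0.34 (SE, n = 3 per group) with adjusted p = 6.6e-06 by limma. Every KO array was far below every WT array. From there KO rose by as many units as WT or more, with a share of 143.2%, and was still -2.75 below WT at E16.5.

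Z00051631-1 followed the same pattern. WT read -0.22, -0.59 and -0.76 at E14.5 and KO -2.74, -3.26 and -2.17, a difference of -2.20 ± 0.32 (SE) with adjusted p = 0.000262 by limma. At E16.5 WT read 4.83, 5.31 and 5.06 and KO 2.71, 3.19 and 3.70. The genotypes did not overlap at either stage. Z00014884-1 at -2.25 ± 0.28 (adjusted p = 6.8e-05 by limma) and Z00058587-1 at -1.83 ± 0.27 (adjusted p = 0.000349) complete the 4 largest lower values, and these 4 calls held under every alternative that could be fitted.

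Among measured members 3 were higher in KO at E14.5 and then low at E16.5. Z00055038-1 read -3.12, -1.62 and -1.48 in WT and -0.38, 0.03 and -0.24 in KO at E14.5, a difference of 1.88 ± 0.35 (SE) with adjusted p = 0.0022 by limma. At E16.5 WT had reached 3.15, 3.53 and 2.79 and KO 0.24, 0.88 and 0.93. KO thus started above and ended below, with 16.9% of the WT rise, and the call at E14.5 was lost with slide as a fixed term (adjusted p = 0.0691).

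Z00023954-1 differed by 0.79 ± 0.17 (SE, adjusted p = 0.00577 by limma) and Z00034705-1 by 0.57 ± 0.17 (adjusted p = 0.0394). Both had negative ratios at all stages, from -4.96 to -2.94 on the WT arrays of the first 2 stages for Z00023954-1, the reference signal being the higher one throughout. The call of Z00023954-1 was lost with normexp and loess, at 0.13 (limma adjusted p = 0.867), and with slide as a fixed term. The call of Z00034705-1 held under 7 of 17 alternatives.

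The depth of these measurements differs by group. In Cy3, 137 members were well above background on none of the 3 WT E14.5 arrays and 169 on all 3, and in KO E14.5 these counts were 123 and 164. At E16.5 in KO, 31 members were above background on no array, 36 on 1, 24 on 2 and 253 on all 3. For the 31 the WT signal at E16.5 was at least 1.12-fold to 2.40-fold higher, with a median bound of 1.37, and the processed ratio gives no firm size. Such bounds come from the Cy3 channel and are open to dye bias. At E18.5, 335 members in WT and 328 in KO were above background on all 3 arrays, and no member had a saturated spot. The reference itself was well above background on all 18 arrays for 207 members and on none for 27.

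The GC content of the members had a median of 45.0%, the same as over the 27989 tested probes, against 43.3% over all probes. The hexamer AATAAA, the usual polyadenylation signal, was on the printed strand in 33 members, or 9.59%, and on the other strand in 4.07%, against 6.93% and 3.36% of all 42006 probes. Among the tested probes alone the hexamer was on the printed strand in 7.69% and on the other in 3.14%. The other 504 rising probes held it on the printed strand in 10.3%. A match to these letters is a description of the probe and not a site. Of all members, 1 (Z00025240-1) matched a promoter window of RefSeq over its whole length, at chr11:69878199-69878258 on the minus strand of GRCm38.p6, near the start of Tmem95. No gene of the RefSeq table spans the match, and no gene name was assigned to the probe. Its KO minus WT was -1.29 at E16.5 and 0.97 at E18.5.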

How the data were processed

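Digit-tip RNA was measured on 18 two-colour arrays in 6 groups of 3. The deposited intensity of each spot, per the file headers, came from Agilent Feature Extraction 9.5.1.1, as raw and as background-subtracted, dye-normalized signals with substitutes near background. Ratios are log2 of processed Cy3 over Cy5, computed here from the deposited intensities and averaged per probe name over non-control spots. Each array had 25100 to 29081 probes clear of background in the sample channel, and 3 arrays per group limit the precision. The deposited value table of 25030 probes, on an unstated scale, tracked log10 of the digit-tip over the reference signal at r = 1.00 with probes centred. A constant per probe of unknown origin had been added, and its column medians were 2.44 to 2.48. It served as an alternative.

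KO against WT at E14.5 was tested with limma 3.58.1 (R 4.3.3) on all 18 arrays, with one mean per group, for the 27989 probes whose Cy3 spots were all above background in some group. P-values were two-sided and adjusted by Benjamini-Hochberg over all of them, with a threshold of 0.05. Outlier spots, 4 to 34 per array, were left out of the fit, which left 1 member untested. As nothing says more of how replicates were taken than one RNA per embryo, p-values measure the spread between these samples. The fit was tested on simulated data.

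The members and lists were chosen with earlier results of these data known. The gene lists planned could not be applied, as IDs carry no gene names. Named members are the 8 lowest at E16.5, the 8 largest WT rises and up to 4 of the largest calls in each direction at E14.5 (only 3 were higher), all among members above background on all arrays concerned. The 3 members just inside and 3 probes just outside the E16.5 limit, and members sharing at least 20 bases, were added. Deviations of same-numbered WT and KO arrays from their group means correlated at 0.23, 0.38 and 0.32 at E16.5. These correlations were -0.20, 0.05 and -0.01 at E14.5, and -0.20, 0.02 and -0.09 at E18.5. Such values alone do not show that replicate numbers pair the arrays. Alternatives changed the background correction, scaling, channel, filter, slide, scan batch, replicate number and each array in turn.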

Additional observations from a re-analysis of the deposited data

Results flagged for a closer look

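Of the members well above background on all 6 arrays of E14.5, 3 were called higher in KO there by limma. In these 3 every KO array lay above every WT array at E14.5 and below every WT array at E16.5. The choice of members favours both, through the WT rise and the KO limit at E16.5. KO minus WT at E14.5 was 1.88 in Z00055038-1, 0.79 in Z00023954-1 and 0.57 in Z00034705-1. Whether the difference changed between the stages was not tested.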

How the results depend on the processing

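With normexp and loess the choice was met by 178 probes, 143 of them members, and 35 members were called at E14.5, 33 of them lower in KO, against 8.94% and 5.22% of all tested probes. Under the same setting the median KO share of the WT rise was 40.6% and the median KO step after E16.5 was 1.49. The cause was not tested. Cy3 alone gave 435 probes meeting the choice, 262 of them members, and replicates 1 and 2 alone 415, with 306 members. With slide as a fixed term 24 members were called and 22 were lower, against 4.57% and 2.84%. The KO step was 2.24 with Cy3 alone and 1.71 over the 250 members above background on all arrays of the groups concerned. Leaving out one array at a time gave 306 to 386 probes meeting the choice, 53 to 75 members called (7.89% to 10.8% of all tested probes), 49 to 62 lower (4.78% to 6.51%), a median E14.5 difference of -0.19 to -0.08, a share of 49.2% to 54.7% and a step of 1.83 to 1.99. With the replicate number as a block 75 members were called and 68 were lower, against 12.1% and 6.89% of all tested probes. The median E14.5 difference was then -0.12. Within the slide that held both genotypes of E14.5, which carried replicate 3 alone of each and so has no replication, the median was -0.07. Counting only members above background on all 6 arrays of E14.5, chosen after seeing the data, gave 53 called, 50 lower. At E16.5 all 344 members kept their direction with normexp and loess, median centring and Cy3 alone, and 178, 344 and 316 stayed at least 1 lower. The same E16.5 arrays chose the members, which favours these counts. Signal over background limits every member outside the 156 measured on all 12 arrays of the first 2 stages.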
